A study of Arabidopsis thaliana with 9 samples.

Results

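The vessel-forming programme of Arabidopsis thaliana was followed in whole seedlings through 10 genes of the 37336 loci in a deposited RNA-seq count table. The genes were taken by locus, and the choice was made with earlier results of these data known. They are the NAC transcription factors VND1 (AT2G18060), VND2 (AT4G36160), VND3 (AT5G66300), VND4 (AT1G12260), VND5 (AT1G62700), VND6 (AT5G62380) and VND7 (AT1G71930), and 3 genes known to lie downstream of them. The downstream genes are the transcription factor MYB46 (AT5G12870) and the cysteine peptidases XCP1 (AT4G35350) and XCP2 (AT1G20850).

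VASCULAR-RELATED NAC-DOMAIN (VND) factors switch immature vascular cells to the vessel fate. They turn on MYB46 and related MYB factors, which act on the genes for cellulose, xylan and lignin of the patterned secondary wall, and they also turn on the peptidases and nucleases that empty the cell as it dies. In Arabidopsis, VND7 is best known for protoxylem vessels and VND6 for metaxylem vessels, and abscisic acid (ABA), the hormone of drought and seed dormancy, is known to alter xylem formation in the root.

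All plants were wild type Col-0. Seedlings were placed in 3 ml of liquid Murashige and Skoog medium 3 days after germination and kept there for 7 days at 22 °C in long days. Fresh medium then held 0.1% DMSO for the mock group, 10 µM ABA, or 10 µM of a compound labelled iCB, and tissue was taken 3 h later. The labels give 3 independent biological replicates in each of the 3 groups, and p-values measure the spread between those samples. The mock and ABA libraries are compared here, and the iCB libraries were not analysed here.

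The 6 libraries held from 21585450 to 22722904 counts. Pearson correlations of log2 CPM (CPM being counts relative to library size, after scaling between libraries) ran from 0.983 to 0.992 within groups and from 0.873 to 0.888 between them. The first principal component held 88.6% of the variance and separated the groups, while the second, with 4.37%, set mock replicate 1 apart from mock replicate 3. The ABA response itself was large: HAI1, RAB18 and RD29A, genes widely used as ABA markers, were 343-fold, 533-fold and 45.3-fold higher in the ABA group. Of 21092 loci tested, 60.4% were called at an adjusted p below 0.05, 31.0% higher and 29.4% lower in ABA, and at 67.9% of tested loci the CPM values of the groups did not overlap. Scaling changed that split, since 51.3% of all calls were higher in ABA with the TMM scaling used here, 32.1% with library totals and 33.7% with upper-quartile factors. The median change of all tested loci moved by -0.23 and -0.21 on the log2 scale under those settings, and the members moved with it.

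Within 3 h of ABA, 7 of the 10 genes rose, 1 fell and 2 did not pass the test, beside the 31.0% and 29.4% of all tested loci that rose and fell. VND2, VND3, VND4, VND7, MYB46, XCP1 and XCP2 rose, by 1.45-fold to 3.27-fold. VND1 fell, and VND5 and VND6 did not pass. The CPM values of the groups did not overlap in 8 of the 10 genes, against 67.9% of tested loci. The median log2 fold change of the 10 genes was 0.67, beside -0.01 over all tested loci. With 60.4% of the transcriptome called, a call alone sets none of these genes apart. Whole seedlings were sampled, so more cells of a type and more RNA per cell cannot be told apart.

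**Figure D1:**
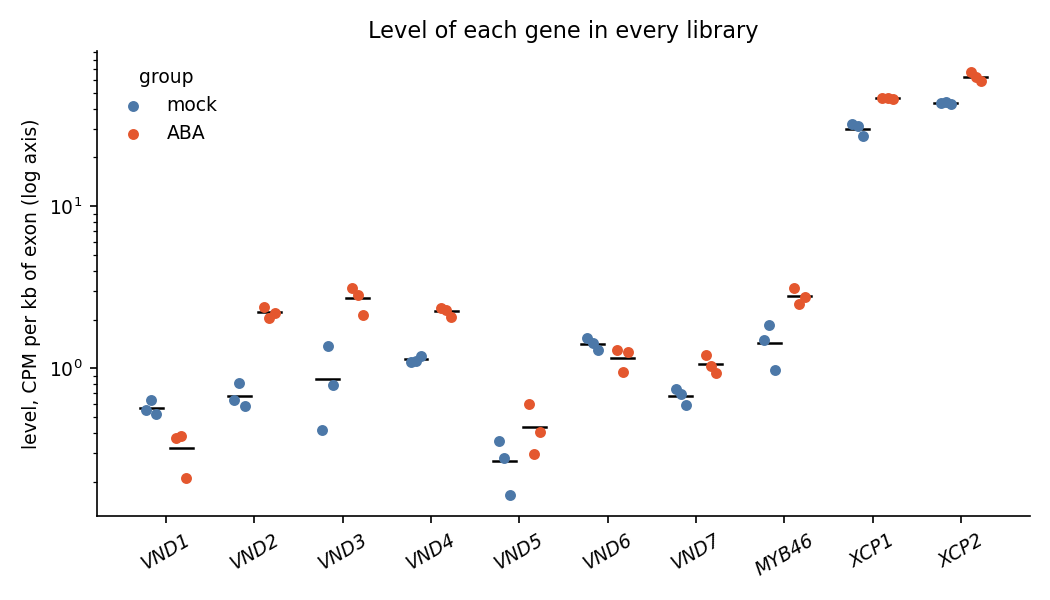
Level of the 10 genes in every mock and ABA library, in CPM per kb of exon on a log axis, with points for libraries and a line for the mean of 3. XCP1 and XCP2 lie at 27.2 CPM per kb or above in every library and the 8 transcription factors at 3.14 or below.

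VND2, VND3 and VND1 are the close relatives that act in seedling vessels ahead of or beside VND7, and they moved in opposite directions. VND2 stood at 1.24, 1.58 and 1.15 CPM in mock replicates 1 to 3 and at 4.68, 4.01 and 4.31 CPM in the ABA replicates. Every ABA library lay well above every mock library. The mean went from 1.32 ± 0.226 to 4.33 ± 0.333 CPM (SD, n = 3). This 3.27-fold rise, 1.71 ± 0.18 (SE) on the log2 scale, had an adjusted p of 5.26e-05 and a 95% interval from 1.3 to 2.12. It was the smallest adjusted p among the VND genes.

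VND3 was the most variable of the family in the mock group. Its mock libraries held 14, 45 and 27 counts, or 0.579, 1.92 and 1.11 CPM, and its ABA libraries 92, 81 and 63 counts, or 4.39, 3.96 and 2.98 CPM. The lowest ABA value was still above the highest mock value. Mean CPM rose from 1.2 ± 0.675 to 3.78 ± 0.722 (SD, n = 3), a log2 fold change of 1.65 ± 0.37 with an adjusted p of 0.00503. The variance of the mock counts was 8.45 times their mean, and the interval of the change was accordingly wide, from 0.80 to 2.50.

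VND1 was the only gene of the 10 that fell. It held 24, 27 and 23 counts in the mock libraries and 14, 14 and 8 in the ABA libraries, which correspond to 0.992, 1.15 and 0.943 CPM against 0.668, 0.685 and 0.379 CPM. The groups did not overlap, but the counts were few. Mean CPM went from 1.03 ± 0.109 to 0.577 ± 0.172, a log2 fold change of -0.83 ± 0.30, or 1.78-fold lower, with an adjusted p of 0.0391. This call was fragile: it was lost without a count filter, with DESeq2 and on leaving out any single library other than mock replicate 3, with a log2 fold change between -1.06 and -0.60 throughout.

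VND4 and VND5 are the members less often linked to a single vessel type. VND4 stood at 2.15, 2.17 and 2.34 CPM in mock and at 4.63, 4.45 and 4.07 CPM in ABA. Its replicates were tight and the groups lay far apart. The variance of its counts was 0.194 times their mean in mock and 0.332 times in ABA. Counting error alone gives more on average, so this tightness is not a measured property of the gene. The mean rose from 2.22 ± 0.102 to 4.39 ± 0.285 CPM, a log2 fold change of 0.98 ± 0.14 with an adjusted p of 0.000394. VND5, the least abundant member per length in the mock group, held 17, 13 and 8 counts in mock and 25, 12 and 17 in ABA. The groups overlapped. Its log2 fold change of 0.70 ± 0.39 did not pass (adjusted p = 0.146), and the interval from -0.18 to 1.58 held both 0 and the change of VND4.

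The 2 best-known vessel switches differed in their calls. VND6 stood at 2.15, 2.00 and 1.80 CPM in mock and at 1.81, 1.32 and 1.75 CPM in ABA. The highest ABA value exceeded the lowest mock value. The log2 fold change of -0.28 ± 0.20 did not pass (adjusted p = 0.257), with an interval from -0.75 to 0.18. VND6 overlaps BAG7 on the opposite strand, which had 2986 to 4898 counts per library against 27 to 52 for VND6 and itself fell by 0.30 on the log2 scale. The strand setting of the counting is not given in the sources used here, so reads of BAG7 in the VND6 count cannot be told apart.

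VND7 held 30, 27 and 24 counts in mock and 42, 35 and 33 in ABA, or 1.24, 1.15 and 0.984 CPM against 2.00, 1.71 and 1.56 CPM. All ABA libraries lay above all mock libraries. Its log2 fold change was 0.64 ± 0.22, 1.56-fold higher, with an adjusted p of 0.0287. The call was lost with upper-quartile factors, library totals and DESeq2, and without mock replicate 2, mock replicate 3, ABA replicate 1 or ABA replicate 2, where the log2 fold change ran from 0.42 to 0.73 over all settings.

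**Figure D2:**
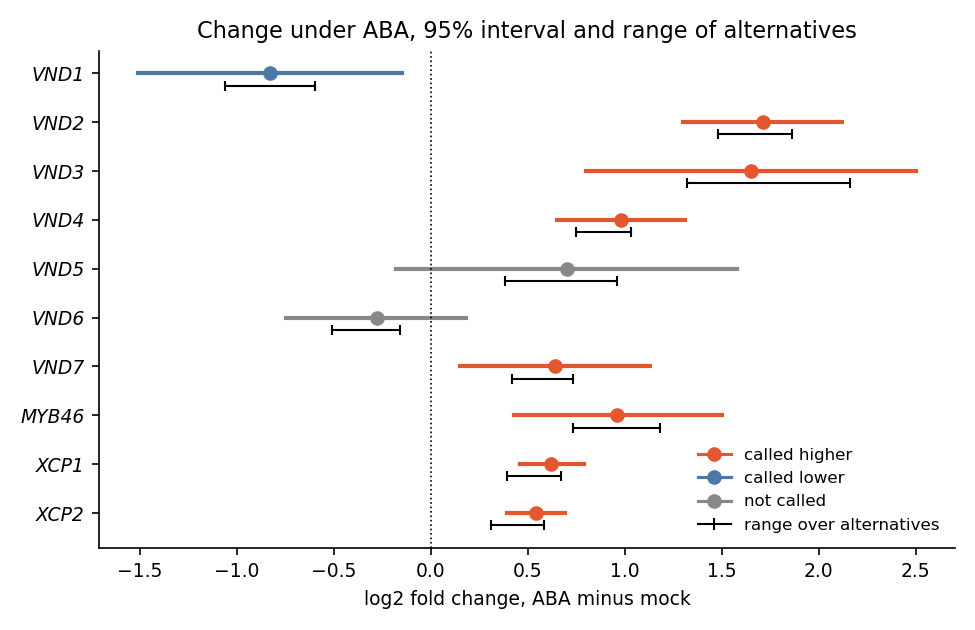
Log2 fold change of each gene, ABA minus mock, as a point with its 95% interval, and below it in black the range over all alternative settings. VND2 at 1.71 and VND3 at 1.65 lie farthest to the right, VND1 at -0.83 lies to the left, and the intervals of VND5 and VND6 cross 0.

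Among the downstream genes, MYB46, a second-tier switch that binds the promoters of wall genes, stood at 1.86, 2.30 and 1.23 CPM in mock and at 3.91, 3.13 and 3.46 CPM in ABA. Mock replicate 3 was the lowest, and no mock library reached an ABA library. The mean rose from 1.80 ± 0.539 to 3.50 ± 0.393 CPM, a log2 fold change of 0.96 ± 0.23 with an adjusted p of 0.00665.

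XCP1 and XCP2 encode papain-like peptidases that digest the contents of the dying vessel cell. XCP1 stood at 45.2, 44.2 and 38.4 CPM in mock and at 65.9, 65.9 and 64.8 CPM in ABA. The ABA libraries were nearly equal, with a count variance of 0.207 times the mean, less than counting error gives on average. Its mean rose from 42.6 ± 3.67 to 65.5 ± 0.616 CPM, a log2 fold change of 0.62 ± 0.07 with an adjusted p of 9.68e-05. XCP2 stood at 59.9, 60.7 and 58.9 CPM in mock and at 92.9, 86.0 and 81.3 CPM in ABA. Here it was the mock libraries that were nearly equal, with a count variance of 0.109 times the mean. The mean rose from 59.8 ± 0.869 to 86.7 ± 5.82 CPM, a log2 fold change of 0.54 ± 0.07 with an adjusted p of 0.000124. XCP1 overlaps AT4G35360 on the opposite strand, with 673 to 801 counts per library, which rose by 0.25 on the log2 scale. VND2 and VND5 overlap loci that held no count. Reads that match more than one of these related genes may be divided between them, since the handling of such reads is not given in the sources used here.

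Levels between genes were compared per kb of exon. In the mock group the order from high to low was XCP2 with 43.4 ± 0.63, XCP1 with 30.2 ± 2.60, MYB46 with 1.44 ± 0.43 and VND6 with 1.42 ± 0.124 CPM per kb, followed by VND4, VND3, VND7, VND2, VND1 and VND5. Neighbours overlapped from MYB46 to VND6 and from VND4 through VND1, while VND6 lay above VND4 and VND5 lay below VND1. VND3, at 0.414 to 1.37 CPM per kb, also overlapped VND6, at 1.29 to 1.54. Without division by length VND4 had a higher mean than VND6, 2.22 against 1.99 CPM. In the ABA group the peptidases still led, with 63.0 ± 4.22 for XCP2 and 46.4 ± 0.436 for XCP1. MYB46, VND3, VND4 and VND2 followed, from 2.80 down to 2.22 CPM per kb, each overlapping the next. VND6 and VND7 came below them at 1.17 ± 0.192 and 1.06 ± 0.135, and VND5 and VND1 were last at 0.435 ± 0.155 and 0.32 ± 0.0955. VND6, with the highest mean per kb of the VND genes in mock, lay below VND3, VND4 and VND2 in ABA. VND1 lay above VND5 in mock and was last in ABA. VND5 and VND1 overlapped in the ABA group. With the longest transcript in place of all exons, VND2 and VND7 changed places in mock, and VND2 and VND4, and VND7 and VND6, in ABA, all of them neighbours whose values overlapped.

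Summed over the 7 VND genes, the level was 5.34, 6.34 and 5.15 CPM per kb in mock and 11.4, 9.82 and 9.23 CPM per kb in ABA. The mean sum was 1.81-fold higher in ABA, going from 5.61 ± 0.638 to 10.1 ± 1.11. The makeup of that sum also differed. VND2 went from 12 ± 0.671% to 21.9 ± 1.68% of it and VND3 from 14.9 ± 6.96% to 26.5 ± 3.03%. VND6, which held the largest mean share in mock, went from 25.5 ± 3.12% to 11.5 ± 1.98%, and VND1 from 10.2 ± 0.117% to 3.13 ± 0.804%. VND4, VND5 and VND7 shares differed by less, at 20.5% and 22.2%, 4.76% and 4.24%, and 12.1% and 10.4%. A share depends on the other genes of the sum and can fall while its own gene does not. VND6 was not called, and the VND7 share was lower in ABA although VND7 was called higher. The BAG7 overlap also applies to the VND6 share. The VND1 share in mock rests on 23 to 27 counts per library, so its small SD is not a measure of counting error. The sum and the shares are descriptions with no test.

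**Figure D3:**
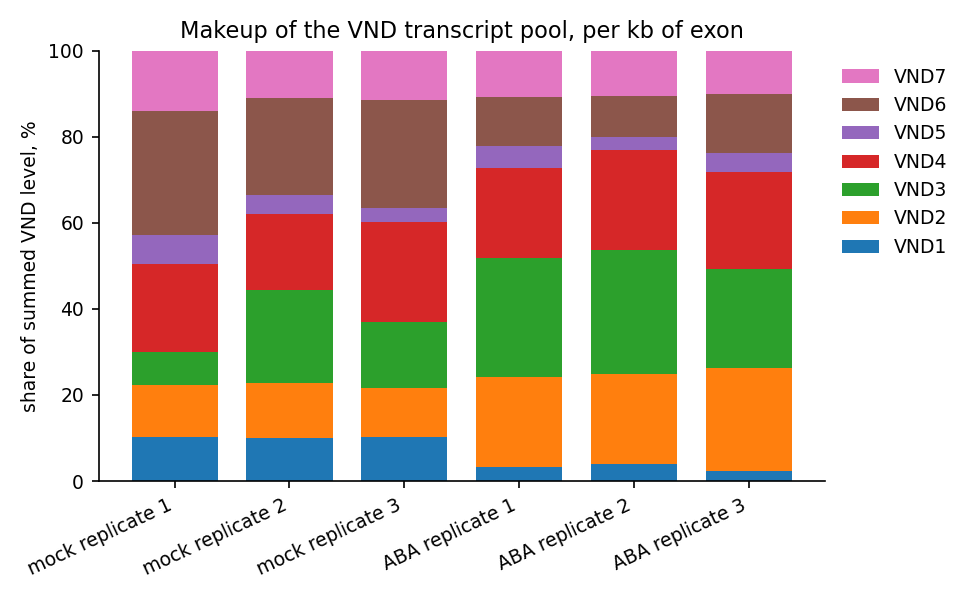
Share of each VND gene in the summed VND level (CPM per kb of exon), in percent, as 1 stacked bar per library. The VND2 and VND3 blocks are larger and the VND1 and VND6 blocks smaller in the 3 ABA bars than in the 3 mock bars.

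Ratios of counts within a library do not depend on the scaling between libraries. 7 pairs were chosen after the values were seen and are described with no test. The log2 ratio of VND2 to VND1 was 0.32, 0.45 and 0.28 in mock and 2.81, 2.55 and 3.51 in ABA. That of VND3 to VND1 went from a mean of 0.06 ± 0.77 to 2.74 ± 0.22. VND4 relative to VND6 went from 0.16 ± 0.19 to 1.44 ± 0.28, and VND7 relative to VND6 from -0.82 ± 0.05 to 0.12 ± 0.27. In these 4 pairs the ABA and mock libraries did not overlap, and the share of such pairs over all genes was not counted. The ratios to VND1 rest on few counts of that gene, with 14, 14 and 8 in the ABA libraries. Those of VND7 to VND6 rest in mock on 24 to 30 counts of VND7 and 44 to 52 of VND6. An SD as small as 0.05 over 3 such libraries is not a measure of their counting error. The XCP1 to XCP2 ratio did overlap, with means of -0.49 ± 0.11 and -0.40 ± 0.09.

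**Figure D4:**
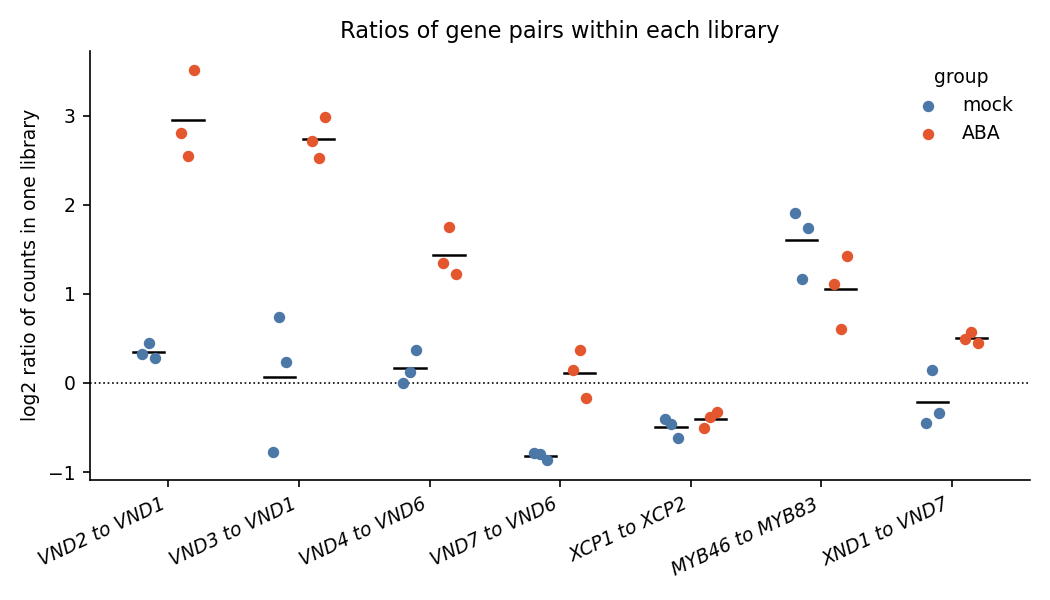
Log2 ratio of the counts of 7 gene pairs within each library, with points for mock and ABA libraries and a line for the mean of 3. The VND2 to VND1 ratio lies between 0.28 and 0.45 in mock and between 2.55 and 3.51 in ABA, whereas the XCP1 to XCP2 ratios overlap.

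Factors that act above or against the VND genes were next examined. Of 13 upstream regulators, 4 rose, 6 fell and 3 did not pass, with a median log2 fold change of -0.26. The share that rose was close to the 31.0% of all tested loci, and 29.4% of those fell. Only 1 rose with library totals, with upper-quartile factors or without mock replicate 3. With DESeq2 or on leaving out ABA replicate 1, ABA replicate 3 or mock replicate 2, 2 rose. Under every alternative tried 6 fell, but the share of all tested loci that fell changed with the setting. That share was 44.8% with library totals and 43.1% with upper-quartile factors, where 21.2% and 21.9% rose. The class III HD-ZIP factors, which pattern the xylem and are kept in check by microRNAs, mostly fell. REV stood at 41.3, 41.4 and 39.3 CPM in mock and 23.2, 20.6 and 23.3 CPM in ABA, a log2 fold change of -0.86 ± 0.07 (adjusted p = 1.07e-05). PHB fell by 0.72 ± 0.07, PHV by 0.41 ± 0.06 and ATHB8, a marker of procambium, by 0.29 ± 0.07 on the log2 scale. ATHB15 was at 47.8 ± 4.88 CPM in mock and 49.0 ± 3.61 CPM in ABA and did not pass (adjusted p = 0.746).

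The partners of a bHLH dimer that drives vascular cell divisions moved apart. TMO5 rose by 0.64 ± 0.10 on the log2 scale, from 8.80 ± 0.868 to 13.7 ± 0.187 CPM, and LHW fell by 0.49 ± 0.07, from 47.7 ± 1.61 to 33.9 ± 2.18 CPM. ACL5, a thermospermine synthase that delays vessel death, rose by 0.31 ± 0.09. Its call was lost with upper-quartile factors and library totals and without mock replicate 3 or ABA replicate 3, and its antisense neighbour MSL9 fell by 1.31. LBD18 and LBD30, which act in a feedback loop with VND7, rose by 0.79 ± 0.29 and 0.75 ± 0.27, from 0.987 ± 0.232 and 1.07 ± 0.226 CPM. Each of these calls was lost in 7 of 14 alternatives, among them library totals, upper-quartile factors and DESeq2.

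The known antagonists of the VND programme both rose, beside 31.0% of all tested loci. VNI2, a NAC protein that binds VND7 and represses its targets, stood at 57.0, 60.5 and 62.0 CPM in mock and at 126, 117 and 128 CPM in ABA, a log2 fold change of 1.05 ± 0.06 with an adjusted p of 1.87e-06. XND1, a NAC protein that blocks vessel differentiation, stood at 0.909, 1.28 and 0.779 CPM in mock and at 2.82, 2.54 and 2.13 CPM in ABA, a log2 fold change of 1.33 ± 0.24 with an adjusted p of 0.00132. Neither gene had overlapping groups, which also held for 67.9% of tested loci. The log2 count ratio of XND1 to VND7 was -0.45, 0.15 and -0.34 in mock and 0.49, 0.57 and 0.45 in ABA. Fibre NAC factors were close to undetected: SND1 and NST2 had no count in any library, which allows up to 0.0416 CPM in mock and 0.048 CPM in ABA from 3 counts over a group, and NST1 had 2, 4 and 2 counts in mock and 0 in each ABA library. NST1 did not pass the count filter. Without that filter it was called lower, beside 23.5% of the loci tested in that setting.

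Genes that act below the VND factors are grouped by role. Of 15 downstream factors other than MYB46, 9 rose, 0 fell and 6 did not pass, beside 31.0% higher and 29.4% lower over all tested loci, and the median was 0.89. MYB52, a MYB factor of the wall programme, went from 1.56 ± 0.412 to 12.7 ± 0.989 CPM, 8.16-fold, and MYB85, a lignin regulator, from 0.652 ± 0.152 to 2.88 ± 0.427 CPM. MYB54 and MYB43 rose by 1.68 ± 0.20 and 0.89 ± 0.12. The log2 ratio of MYB46 to its close relative MYB83 had means of 1.60 ± 0.39 in mock and 1.05 ± 0.42 in ABA and the groups overlapped.

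Of 9 genes for secondary wall cellulose, 7 rose, 1 fell and 1 did not pass, against 31.0% of all tested loci higher and 29.4% lower. The 3 cellulose synthase subunits of the secondary wall rose together: CESA4 by 0.68 ± 0.08, CESA7 by 0.75 ± 0.11 and CESA8 by 0.81 ± 0.11 on the log2 scale. COBL4, which is needed for cellulose assembly, rose by 0.82 ± 0.13. FLA12, an arabinogalactan protein, fell by 0.70 ± 0.18. CESA4 shares sequence on the same strand with AT5G44020, whose counts fell by 1.18 on the log2 scale.

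Of 10 xylan genes, 5 rose and 5 did not pass, where 31.0% of all tested loci rose and 29.4% fell. With library totals 4 rose and 2 fell, beside 21.2% and 44.8% of all tested loci, and upper-quartile factors gave the same counts beside 21.9% and 43.1%. GXMT1, which methylates xylan, rose by 0.88 ± 0.10, FRA8 by 1.67 ± 0.23, IRX15 by 0.84 ± 0.18 and IRX9 by 0.58 ± 0.13. FRA8 overlaps AT2G28105 on the opposite strand, whose counts fell by 0.88. Of 21 lignin genes, 10 rose, 4 fell and 7 did not pass, again beside 31.0% and 29.4%. The median was 0.33, and it was 0.10 with library totals and 0.12 with upper-quartile factors. Closely related enzymes went opposite ways. PAL4 went from 14.8 ± 2.30 to 101 ± 10.4 CPM while PAL2 fell from 174 ± 12.9 to 82.3 ± 4.93 CPM, and both are phenylalanine ammonia-lyases. CAD5 rose by 2.62 ± 0.16 and CAD4, the other main cinnamyl alcohol dehydrogenase, fell by 0.68 ± 0.11. The peroxidase superfamily locus AT5G51890 rose by 1.23 ± 0.07. CSE and F5H fell by 0.38 ± 0.09 and 0.22 ± 0.07, and the call for F5H was lost without mock replicate 1, mock replicate 2, ABA replicate 1 or ABA replicate 3.

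All 4 genes of cell death and autolysis rose, beside 31.0% of all tested loci. BFN1, a nuclease, stood at 2.31, 1.45 and 2.42 CPM in mock and at 20.9, 15.9 and 14.7 CPM in ABA, 8.29-fold higher with an adjusted p of 6.75e-06. The metacaspase MC9 and the ribonuclease RNS3 rose by 1.08 ± 0.23 and 1.09 ± 0.27. XSP1, a serine peptidase of xylem, rose by 0.33 ± 0.10, and its call was lost under library totals and upper-quartile scaling and without any single ABA library. The wall patterning genes did not pass: ROPGEF4, MIDD1, MAP70-5 and ROPGAP3, which place the pits of metaxylem walls or bundle microtubules, had log2 fold changes of -0.33, 0.10, -0.06 and 0.03. MAP70-5, with 90 to 147 counts per library, overlaps AT4G17215 on the opposite strand, which had 122 to 616 counts and rose by 2.10. ROPGEF4 was called lower under library totals and upper-quartile scaling and without ABA replicate 1.

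**Figure D5:**
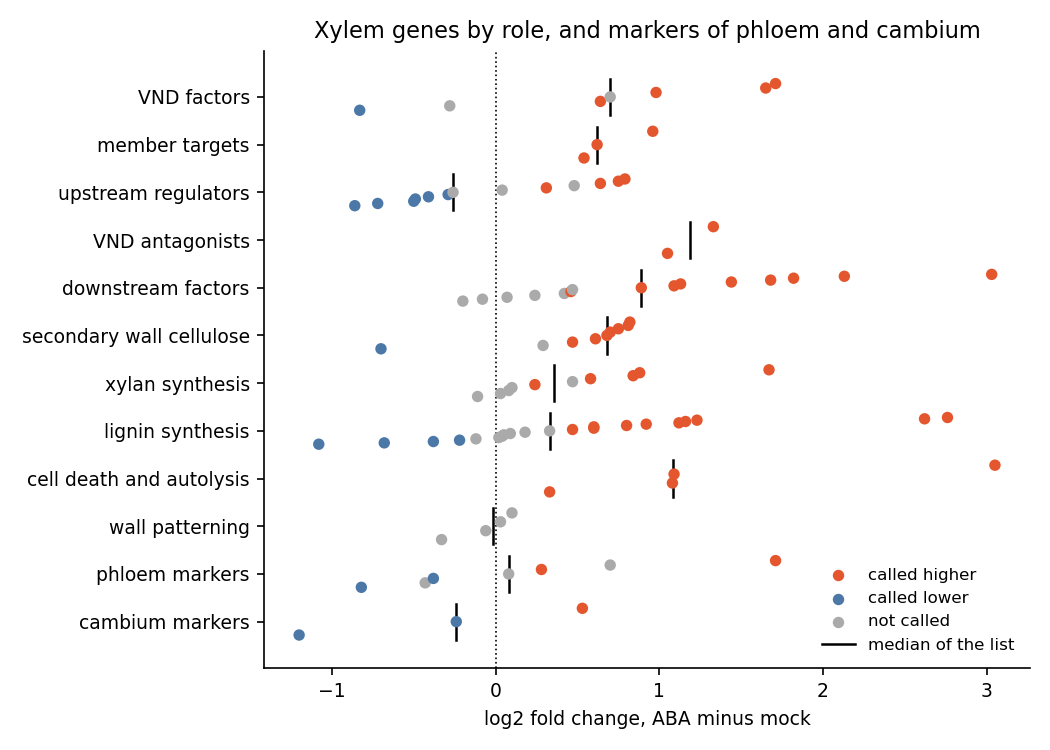
Log2 fold change, ABA minus mock, of every tested gene of the xylem lists and of the phloem and cambium marker lists, with 1 point per gene and a black line for each list's median. The medians are 0.89 for downstream factors and 1.08 for cell death and autolysis, and -0.26 for upstream regulators.

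Over the xylem lists without the 10 genes, 41 of 78 tested genes rose and 11 fell, with a median of 0.47, beside 31.0% and 29.4% of all tested loci. With library totals these counts were 32 and 14, beside 21.2% and 44.8% of all tested loci. Markers of neighbouring vascular cell types were read beside them. The 7 phloem markers summed to 111 to 121 CPM in mock and 218 to 222 CPM in ABA, and 2 rose, 2 fell and 3 did not pass. SUC2 carried that difference, since the other 6 summed to 66.5 to 72.3 CPM in mock and 66.9 to 70.1 CPM in ABA. SUC2, the companion cell sucrose transporter, rose by 1.71 ± 0.06 and SEOR1, a sieve element protein, by 0.28 ± 0.06, while CVP2 and APL fell by 0.82 ± 0.11 and 0.38 ± 0.08. The SEOR1 call was lost with upper-quartile factors and library totals. The 3 cambium markers summed to 62.0 to 66.2 CPM in mock and 51.8 to 53.9 CPM in ABA, with ANT and PXY lower by 1.2 and 0.24 and WOX4 higher by 0.53. No marker of either list was at 0, and the part of these cell types in the changes of the xylem genes was not tested.

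The profile of VND2 over the 6 libraries was nearest to those of AT3G10910 and AT1G63840, both of the RING/U-box superfamily, OASA2, AT5G52420 and MTP11. Distances between centred log2 CPM profiles ran from 0.168 to 0.204 and Pearson correlations from 0.997 to 0.998. These points fall into 2 groups, and 3454 of the 21092 loci had a correlation above 0.95 with VND2.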

How the data were processed

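RNA was taken from whole seedlings and sequenced from strand-specific mRNA libraries, per the labels' protocols. The submitters' processing notes name the TAIR10 build and the tools FastQC, cutadapt, STAR and DESeq2. No version, counting program or strand setting is given in the sources used here. Values in the count table, as deposited, are whole numbers of reads per locus that the authors did not normalize. Of its 9 count columns, 6 match the mock and ABA labels and 3 match no label. Those 3 were not used, so the planned comparison of iCB with mock was not made.

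Counts were analysed with edgeR 4.0.16 in R 4.3.3, using filterByExpr, TMM scaling and the quasi-likelihood F test with Benjamini-Hochberg adjustment over 21092 loci. A gene was called at an adjusted p below 0.05. SE is the log2 fold change over the square root of F. Levels are CPM after TMM, with SD over 3 libraries. No replicate pair agreed within sampling noise, with a chi-square over its degrees of freedom of 6.64 to 14.7. Floors of 3 counts cover counting error only. Gene names, exonic lengths and overlaps came from the TAIR10.1 RefSeq annotation, which held 37051 of the 37336 loci. No TAIR10 genome, promoter or protein sequences were among the sources used here, so no coordinates or sequences are given. The steps were tested on simulated counts in which few loci changed, as often up as down. That simulation cannot check the scaling in data where 60.4% of tested loci were called.

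The 10 genes and all lists were chosen with earlier results of these data known. Beside the 10 genes, the naming rule took up to 4 genes with the smallest adjusted p per list, called genes moving against their list, class III HD-ZIP genes, antagonists and the 5 profiles nearest VND2. Alternatives were RLE, upper-quartile and library-total scaling, no filter or at least 1 CPM in 3 libraries, a replicate block, DESeq2 1.42.0, limma-voom (limma 3.58.1), each library left out, and transcript length.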

Additional observations from a re-analysis of the deposited data

How the results depend on the processing

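6 of the 8 calls among the 10 genes held under all 14 alternatives: VND2, VND3, VND4, MYB46, XCP1 and XCP2. The exceptions were VND1 and VND7, so the number of members called lower was 0 without a filter and with DESeq2, and 0 to 1 on leaving out a library. Of the other 45 called genes that are named, 39 kept their calls throughout. Library totals gave 9459 loci called lower, against 6205. Changes near 0 turned sign with upper-quartile factors and library totals: MIDD1 to -0.11 and -0.13, ROPGAP3 to -0.18 and -0.20, and ATHB15 to -0.17 and -0.19. On leaving out single libraries their log2 fold changes ran from -0.02 to 0.12 for ATHB15, -0.08 to 0.11 for ROPGAP3 and -0.25 to 0.08 for MAP70-5. None of these passed the test, and the cause of the changes was not tested. Replicate numbers are shared between the groups, but same-numbered libraries deviated together only weakly (correlations of 0.0663, 0.0838 and 0.203), so the numbers were not taken as pairs, although each library correlated best with its own number. With a replicate block, 7 members were called higher and 1 lower, and 6586 and 6229 of all loci. VND5 held 8 to 25 counts per library and had the widest interval of the 10 genes. The part of depth in the VND1 and VND7 calls was not tested.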
